A study of Mus musculus with 16 samples.

Results

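The comparison set line 3583T3 against line 3151T4, 2 lines grown from separate mouse small cell lung cancers, on the arrays of cultures that carried a retroviral vector. Each line was measured with a vector for Nfib, a member of the nuclear factor I family of DNA-binding proteins, with a vector for Mycl1 (L-Myc, current symbol Mycl), a MYC family oncogene, and with both. There were 2 arrays for each line and vector, so 6 arrays of 3583T3 and 6 arrays of 3151T4 were compared, 12 of the 16 arrays of the series. They were chosen by their labels for line and vector and not by any measured value. The Nfib vector carried neomycin resistance and FLAG-tagged Nfib, and its cultures were selected with G418. The Mycl1 vector carried puromycin resistance, and its cultures were selected with puromycin. The cells came from tumours dissociated with collagenase and trypsin and plated in serum medium, in both lines. Every culture compared here had thus been transduced and drug selected, each line comes from 1 tumour, and no array carried an empty vector. The genotype, strain and age of the mice are not given in the sources used here. The series was built around the vectors, and the comparison between lines answers how the identity of the 2 tumour lines that received them differed.

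Small cell lung cancer is a neuroendocrine tumour, whose cells commonly hold secretory granule proteins and transcription factors such as Neurod1 or Insm1. Epithelial cells are joined by E-cadherin, claudins and desmosomes and hold keratin filaments, while mesenchymal cells hold vimentin and N-cadherin and secrete fibrillar matrix. Zeb and Snail factors repress epithelial genes by binding E-box sequences in their promoters. Homeobox, T-box, Sox, Fox and Zic factors are switched on in particular regions of the embryo, and many stay on in cells derived from those regions.

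Levels are array signals on the log2 scale, given as the lowest, the median and the highest of the 6 arrays of a line. Differences are 3583T3 minus 3151T4 with their standard error (SE), from a limma model with line and vector over the 12 arrays, and the p-values were adjusted over all 8663 genes tested. Only autosomal genes were counted and named, 8375 of the 11957 on the array. A gene was tested if it exceeded log2 4 on at least 2 of the 12 arrays, so a gene that is dim in 1 line was tested only if the other line carried it. The signal has a floor near log2 2, and where the mean or all arrays of a line lie at or under log2 4 the difference is given without a fold. The labels number the replicates without saying whether each was a culture of its own. The p-values of the line difference therefore rest on the spread between replicate arrays, which may be technical. They also rest on how much that difference changed with the vector. Fewer cells of a type and less RNA per cell cannot be told apart on such arrays.

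The untransfected arrays were left out because they hold leukocyte RNA. The mean level of 20 leukocyte markers was 6.99 to 7.76 on the untransfected arrays of 3583T3 and 6.10 to 6.12 on those of 3151T4. With a vector it was 2.74 to 3.01 on the arrays of 3583T3 and 3.04 to 3.56 on those of 3151T4, so the arrays of 3151T4 lay slightly higher without overlap. The defining markers Ptprc, Tyrobp and C1qb were below the filter in both lines. Lyz2, a further defining marker, averaged 2.91 in 3583T3 and 3.58 in 3151T4, with a highest array of 3.15 and 5.28. On 3583T3 Nfib replicate 2 the Mycl probe set read 10.22, and on 3583T3 Nfib+Mycl1 replicate 2 it read 2.67, both against the label. Without these 2 arrays 3757 genes differed between the lines, in place of the 3933 below, and none of the 40 list counts moved by more than 3 genes. The 30 pairs of arrays of the same line correlated at 0.928 to 0.995 over the genes tested, and the 36 pairs of arrays of different lines at 0.845 to 0.930.

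Between the lines, 3933 of the 8375 autosomal genes passed the test at an adjusted p under 0.05, which is 47% of them. Of these, 1796 (21.4%) were higher in 3583T3 and 2137 (25.5%) were lower. At least 2-fold differences were found for 1320 genes (15.8%), 581 of them higher in 3583T3 and 739 lower, and of the 1320 the sign was the same on the untransfected arrays for 1282. For 1768 genes (21.1%) the 6 arrays of 3583T3 did not overlap the 6 of 3151T4. The median difference over all genes was -0.01 and the median size of a difference 0.36. With 47% of the genes called, the share of a gene list is given below beside these percentages. The lists were chosen with earlier results of these data known, so their shares describe the lines and are no test.

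The 12 largest differences in each direction were taken among called genes whose arrays did not overlap between the lines. Predicted or clone symbols were skipped. The lack of overlap of these genes was thus a condition of their choice and no further result. All but Mal2 and Krt8 averaged under log2 4 in the line where they were lower. Higher in 3583T3 were Ctla2a, a cathepsin inhibitor, at 9.26, 9.72 and 10.98 in 3583T3 against 2.16, 2.31 and 2.78 in 3151T4, and Efemp1, the matrix glycoprotein fibulin-3, at 9.40, 10.41 and 10.70 in 3583T3 against 2.32, 2.52 and 3.06 in 3151T4. Cldn6, a claudin of embryonic epithelia, read 7.85, 9.77 and 10.99 in 3583T3 and 1.89, 2.40 and 2.64 in 3151T4. Cldn18, a claudin of lung and stomach, read 8.44, 9.60 and 10.21 in 3583T3 and 2.43, 3.01 and 3.30 in 3151T4. For each of these 4 genes every array of 3583T3 lay above every array of 3151T4, and the differences were 7.60 ± 0.29, 7.59 ± 0.24, 7.19 ± 0.40 and 6.48 ± 0.31 (SE; adjusted p at most 3.40e-08). Mal2, a protein of apical transport in polarised epithelia, read 10.58, 11.23 and 12 in 3583T3 and 2.97, 4.18 and 6.56 in 3151T4, a 99-fold difference. Grem1, a secreted antagonist of bone morphogenetic proteins, read 9.43, 9.54 and 10.21 in 3583T3 and 2.84, 3.46 and 4.02 in 3151T4. The groups did not overlap for either gene. The other genes at the top of this direction were Prl, the pituitary hormone prolactin (6.01 ± 0.41), Clca3a1, of a family of chloride channel regulators (5.95 ± 0.32), Myo5c, a myosin of secretory epithelia (5.93 ± 0.21), Esam, an adhesion molecule of endothelial tight junctions (5.92 ± 0.77), Ptgis, prostacyclin synthase (5.91 ± 0.32), and Krt8.

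Lower in 3583T3 was Igfbp5, a binding protein of insulin-like growth factors, at 2.77, 3.05 and 3.95 in 3583T3 against 9.94, 11.31 and 11.75 in 3151T4. Islr, a secreted protein with leucine-rich repeats, read 1.86, 2.97 and 3.92 in 3583T3 and 9.73, 10.03 and 11.50 in 3151T4. Ddc, the decarboxylase that makes dopamine and serotonin, read 1.63, 1.80 and 1.89 in 3583T3 and 7.41, 9.09 and 10.71 in 3151T4. All arrays of 3583T3 lay under log2 4 for these genes and all arrays of 3151T4 above log2 7, with differences of -7.78 ± 0.17, -7.39 ± 0.20 and -7.36 ± 0.37 (adjusted p = 1.23e-11, 5.42e-11 and 1.38e-08). P2ry14, a receptor for UDP-sugars, differed by -7.06 ± 0.16, Susd2 by -6.67 ± 0.37, Hsd11b1, which regenerates active glucocorticoid, by -6.01 ± 0.53, Dpt, the matrix protein dermatopontin, by -5.84 ± 0.43, Fndc1 by -5.77 ± 0.34 and the protocadherin Pcdh8 by -5.72 ± 0.32. The remaining 3 of these 12 genes, En2, Pax1 and Dlx5, are homeobox or paired box factors and are described with the patterning genes.

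Epithelial genes were higher in 3583T3. Among the adhesion and junction genes 25 of the 49 on the array could be tested, and 19 of them (76%) were higher in 3583T3 and 2 (8%) lower, against 21.4% and 25.5% of all genes. Their median difference was 1.87, against -0.01 over all genes. Of the 25, 6 had all arrays of 3151T4 at or under log2 4, so they entered the test through 3583T3. Over all 49 genes, the 24 dim ones included, the mean level was 5.03 to 5.42 on the arrays of 3583T3 and 4.12 to 4.31 on those of 3151T4, with no overlap. Of the 7 keratins tested, out of 18 on the array, 5 (71.4%) were higher in 3583T3 and 1 (14.3%) lower. In 1 of the 7 all arrays of 3583T3 were at or under log2 4.

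Cdh1, which encodes E-cadherin, the adhesion protein of epithelial cells, read 11.46, 12.15 and 12.67 in 3583T3 and 7.29, 8.06 and 8.41 in 3151T4. It was 17.9-fold higher in 3583T3 (4.16 ± 0.14, adjusted p = 4.20e-10), with no overlap between the arrays, and it lay well above the floor in both lines. Krt8 and Krt18 are the keratin pair of simple epithelia. Krt8 read 11.70, 12.13 and 12.77 in 3583T3 and 4.33, 6.50 and 8.03 in 3151T4 (5.74 ± 0.33, 53.6-fold, adjusted p = 4.49e-08). Krt18 read 12.42, 12.96 and 13.36 in 3583T3 and 7.95, 9.05 and 10.42 in 3151T4 (3.77 ± 0.27, 13.6-fold, adjusted p = 2.78e-07). Both were high on every array of 3583T3 and spread over more than 2 log2 units in 3151T4, where the Mycl1 arrays were the highest. Krt7 (3.24 ± 0.36) and Krt19 (2.65 ± 0.22), further keratins of simple or luminal epithelia, and the keratin Krt80 (2.14 ± 0.33) were higher too. Krt14, a keratin of basal epithelial cells, went the other way, at 2.47, 3.10 and 3.37 in 3583T3 and 5.97, 6.69 and 8.06 in 3151T4 (-3.87 ± 0.32, adjusted p = 1.20e-06).

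Among the claudins, Cldn3 read 6.61, 7.53 and 8.75 in 3583T3 and 2.59, 3.0 and 3.33 in 3151T4 (4.72 ± 0.24). Lsr, a protein of tricellular junctions, read 5.65, 8.21 and 8.86 in 3583T3 and 3.65, 3.92 and 5.08 in 3151T4 (3.48 ± 0.36, 11.1-fold). Cldn15 (-2.60 ± 0.58) and Cldn10 (-2.15 ± 0.28) were the 2 junction genes lower in 3583T3. Not all epithelial genes were carried: Epcam, a surface protein of epithelial cells, stayed at or under 3.67 on all 12 arrays, and Cldn7, Ocln, Elf3, Esrp1, Ovol1 and Ovol2 were below the filter. Of the 49 junction genes, 24 were dim in both lines in this way.

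**Figure D1:**
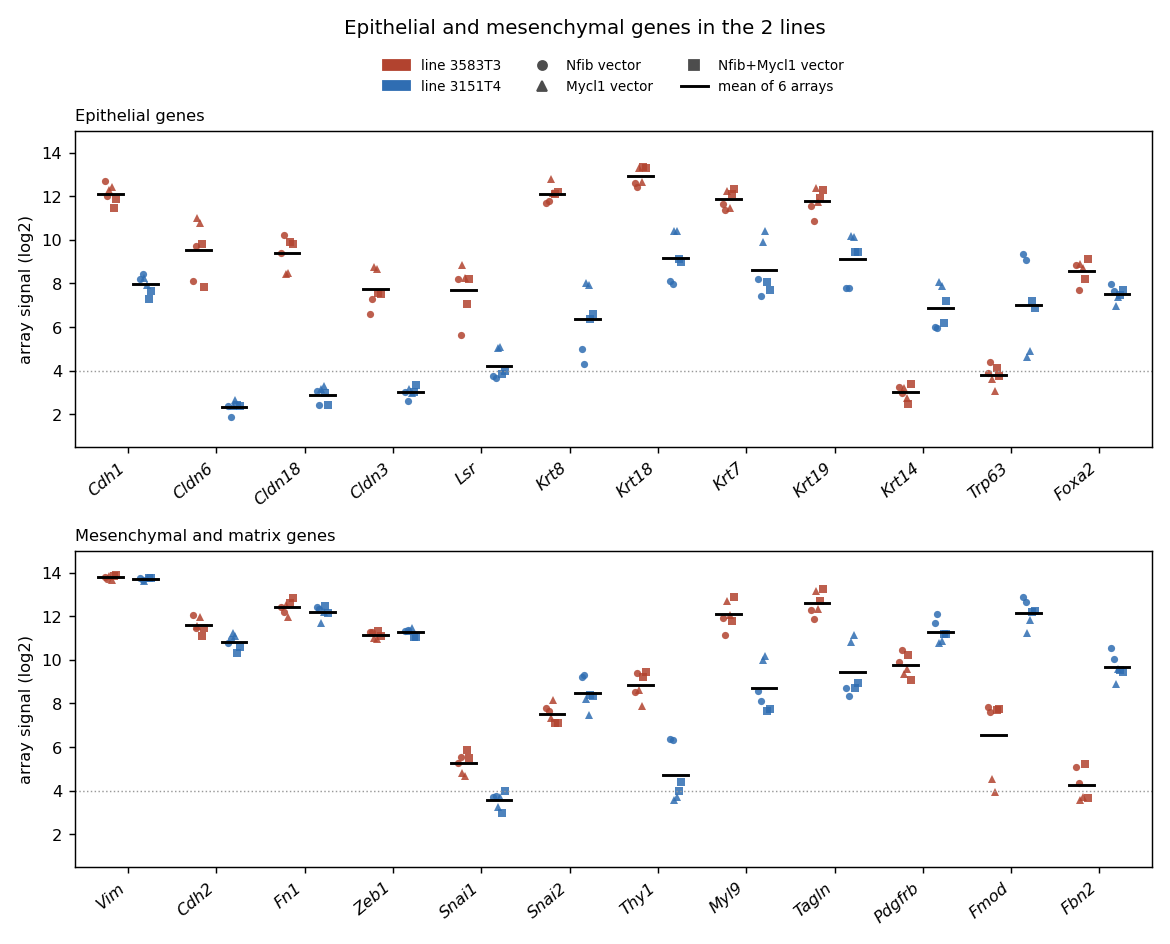
Array signal (log2) of 12 epithelial genes and 12 mesenchymal or matrix genes on each of the 6 arrays of 3583T3 (left of each gene) and of 3151T4 (right), with the vector as symbol, the mean as a bar and the filter level of log2 4 as a dotted line. Cdh1, the claudins and Krt8 to Krt19 sit higher in 3583T3 and Krt14 and Trp63 lower, while the arrays of the lines overlap for Vim, Fn1 and Zeb1.

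The promoters of genes that moved together were read for the E-box letters CACCTG and CAGGTG, which are each other's reverse complement, so that both strands are covered by searching both. In the 250 bases before the gene start (RefSeq, GRCm38.p6), 17.2% of the 32851 promoters in the table held at least 1. Promoters were at hand for 15 of the 24 junction and keratin genes higher in 3583T3, 17 promoters in all, and 11 of the 17 (64.7%) held an E-box. Of the promoters of junction and keratin genes below the filter in both lines, 11 of 24 (45.8%) held one, of those that did not pass the test 2 of 3 (66.7%), and of those lower in 3583T3 0 of 4. A match is a description of the letters and not a site. The 4 promoters below are those of the keratin pair, of the claudin with the largest difference and of the gene with the most E-boxes, 5′ to 3′ on the strand of the gene, with E-boxes in capitals.
Krt8, chr15:102004343-102004592, minus strand: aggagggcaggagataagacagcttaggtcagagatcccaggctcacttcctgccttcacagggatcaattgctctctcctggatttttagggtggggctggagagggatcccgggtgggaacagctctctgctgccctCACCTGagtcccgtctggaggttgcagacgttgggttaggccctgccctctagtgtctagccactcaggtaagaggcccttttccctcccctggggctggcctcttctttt
Krt18, chr15:102027966-102028215, plus strand: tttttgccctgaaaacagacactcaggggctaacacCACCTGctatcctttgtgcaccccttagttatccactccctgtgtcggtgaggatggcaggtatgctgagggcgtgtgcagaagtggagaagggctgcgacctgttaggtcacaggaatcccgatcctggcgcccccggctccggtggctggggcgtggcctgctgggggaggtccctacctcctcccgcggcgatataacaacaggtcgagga
Cldn6, chr17:23679115-23679364, plus strand: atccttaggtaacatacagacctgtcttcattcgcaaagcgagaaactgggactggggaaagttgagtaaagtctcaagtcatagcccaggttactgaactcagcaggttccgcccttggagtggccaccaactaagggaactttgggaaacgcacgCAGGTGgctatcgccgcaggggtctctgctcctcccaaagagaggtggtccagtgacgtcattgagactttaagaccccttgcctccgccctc
Lsr, chr7:30973470-30973719, minus strand: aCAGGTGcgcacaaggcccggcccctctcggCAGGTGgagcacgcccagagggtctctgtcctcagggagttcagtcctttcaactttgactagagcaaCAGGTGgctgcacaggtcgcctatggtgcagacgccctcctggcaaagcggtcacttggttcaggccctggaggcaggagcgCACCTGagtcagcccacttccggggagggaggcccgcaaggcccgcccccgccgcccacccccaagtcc

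The E-box nearest the gene start began 111 bases before it in Krt8, 214 in Krt18, 93 in Cldn6 and 69 in Lsr, which held 4. Krt8 and Krt18 lie next to each other on chromosome 15.

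Transcription factors of epithelia did not share the direction of the junction genes. Of 9 tested, out of 18 on the array, 3 were higher in 3583T3 and 3 lower, and the median difference was 0.01. Klf5 (1.53 ± 0.22, 2.89-fold) and Foxa2 (1.07 ± 0.25, 2.09-fold), factors of gut and lung endoderm, were higher, as was Klf4 (0.81 ± 0.19). Foxa2 read 7.72, 8.77 and 9.13 in 3583T3 and 6.94, 7.56 and 7.96 in 3151T4, with overlap between the arrays. Trp63, the p63 factor of basal epithelial cells, read 3.08, 3.83 and 4.40 in 3583T3 and 4.62, 7.03 and 9.37 in 3151T4 (-3.20 ± 0.45, adjusted p = 1.06e-04), with no overlap. Grhl2 (-0.77 ± 0.24) and Foxa1 (-0.37 ± 0.09) were lower by less than 2-fold, and Grhl2 did not pass without the 2 arrays whose Mycl goes against the label (adjusted p = 0.0724).

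Markers of lung epithelium gave no common direction. Of 12 tested, out of 25 on the array, 3 (25%) were higher in 3583T3 and 4 (33.3%) lower, not far from the shares over all genes. Nkx2-1, the factor that specifies lung epithelium, averaged 3.55 in 3583T3 and 3.81 in 3151T4 and was below the filter, as were the club cell gene Scgb1a1 and the surfactant gene Sftpb. Pdpn, podoplanin of alveolar type I cells, read 9.04, 10.17 and 11.14 in 3583T3 and 6.15, 7.92 and 9.37 in 3151T4 (2.22 ± 0.30, 4.67-fold). Bpifb1, a secreted airway protein (-3.69 ± 0.79), and Hopx, a homeodomain protein of alveolar type I cells (-2.77 ± 0.39), were lower in 3583T3, and both spread widely within 3151T4, Bpifb1 over 4.15, 7.81 and 12.72.

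Both lines held the core mesenchymal genes at high levels. Vim, the filament protein vimentin, read 13.64, 13.82 and 13.87 in 3583T3 and 13.60, 13.73 and 13.77 in 3151T4, and the difference of 0.08 ± 0.05 did not pass the test (adjusted p = 0.222). Fn1, fibronectin, read 11.96, 12.48 and 12.82 in 3583T3 and 11.67, 12.26 and 12.49 in 3151T4 (0.22 ± 0.13, adjusted p = 0.178). Another, dimmer Fn1 probe set differed by 1.07 ± 0.19 (adjusted p = 7.26e-04 over all probe sets), so the call for Fn1 depends on the probe set. Cdh2, N-cadherin, was higher in 3583T3, at 11.08, 11.50 and 12.03 in 3583T3 and 10.31, 10.85 and 11.21 in 3151T4 (0.78 ± 0.12, 1.72-fold, adjusted p = 2.51e-04). Another, dimmer Cdh2 probe set differed by 1.76 ± 0.22 (adjusted p = 6.77e-05 over all probe sets). That probe set read 10.48 to 11.68 in 3583T3 and 8.91 to 9.80 in 3151T4, with no overlap. So 3583T3 was higher for E-cadherin and for N-cadherin. On the brightest probe sets the arrays overlapped for vimentin, fibronectin and N-cadherin, and on the dimmer Cdh2 probe set they did not.

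Of 37 mesenchymal structural and adhesion genes tested, out of 38 on the array, 20 (54.1%) were higher in 3583T3 and 6 (16.2%) lower, and their median difference was 0.45. In 2 of the 37 all arrays of 3151T4 were at or under log2 4, so these were tested through 3583T3. The largest differences were those of Thy1 and of contractile genes. Thy1, a surface glycoprotein of fibroblasts and neurons, read 7.89, 8.92 and 9.43 in 3583T3 and 3.56, 4.17 and 6.34 in 3151T4 (4.13 ± 0.36, 17.5-fold, adjusted p = 1.54e-06). Myl9, a myosin light chain of smooth muscle, read 11.16, 11.99 and 12.88 in 3583T3 and 7.63, 8.34 and 10.18 in 3151T4 (3.38 ± 0.34), and Tagln, the actin-binding protein transgelin, 11.89, 12.50 and 13.23 in 3583T3 and 8.33, 8.82 and 11.14 in 3151T4 (3.16 ± 0.33). Every array of 3583T3 lay above those of 3151T4 for these 3 genes. Actg2, smooth muscle gamma-actin, was higher with a vector (2.52 ± 0.45) but lower on the untransfected arrays (-1.52). Lower in 3583T3 were Pdgfrb, a receptor of fibroblasts and pericytes, at 9.07, 9.73 and 10.47 in 3583T3 and 10.77, 11.19 and 12.08 in 3151T4 (-1.53 ± 0.18, 2.89-fold), the matrix protein Postn, periostin (-2.11 ± 0.51), and the protease Mmp2 (-1.45 ± 0.42).

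The repressors of epithelial genes did not divide the lines in 1 direction. Zeb1 read 10.96, 11.17 and 11.33 in 3583T3 and 11.05, 11.32 and 11.48 in 3151T4 (-0.11 ± 0.10, adjusted p = 0.362), and neither it nor Zeb2 passed the test. Zeb2 read 5.58, 6.04 and 6.53 in 3583T3 and 5.81, 6.22 and 7.11 in 3151T4 (-0.26 ± 0.19, adjusted p = 0.262). Snai1 was higher in 3583T3, at 4.68, 5.38 and 5.85 in 3583T3 and 2.98, 3.71 and 3.98 in 3151T4 (1.71 ± 0.22, adjusted p = 3.94e-05). Snai2 was lower, at 7.09, 7.49 and 8.14 in 3583T3 and 7.48, 8.36 and 9.31 in 3151T4 (-0.97 ± 0.24, adjusted p = 0.00505). Twist1, a bHLH factor of mesoderm, read 9.78, 10.46 and 10.74 in 3583T3 and 9.96, 10.88 and 11.33 in 3151T4 and was lower as well (-0.39 ± 0.11, adjusted p = 0.0127). The arrays of the lines overlapped for Snai2 and Twist1 and not for Snai1.

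Of all 23 mesenchymal transcription factors tested, out of 27 on the array, 6 (26.1%) were higher in 3583T3 and 10 (43.5%) lower. The shares over all genes were 21.4% and 25.5%. In 1 of the 23 all arrays of 3583T3 were at or under log2 4 and in 4 all arrays of 3151T4, so these were tested through the other line. Over all 27 genes the mean level was 6.24 to 6.87 on the arrays of 3583T3 and 6.67 to 7.06 on those of 3151T4, which overlap. Tcf21, a factor of lung and kidney mesenchyme (2.53 ± 0.28), and Hmga2, a chromatin protein of embryonic mesenchyme (1.72 ± 0.14, 3.3-fold), were higher. Foxd1, a factor of kidney stroma and facial mesenchyme, read 2.87, 3.50 and 3.97 in 3583T3 and 7.26, 7.56 and 8.39 in 3151T4 (-4.31 ± 0.18, adjusted p = 3.80e-09). Foxc1 (-1.99 ± 0.22) and Foxc2 (-1.55 ± 0.28), factors of paraxial mesoderm, and Prrx2 (-1.44 ± 0.27), a factor of limb and facial mesenchyme, were lower as well, and in these 4 genes the arrays did not overlap.

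Matrix genes differed in both directions. Of 50 tested, out of 54 on the array, 13 (26%) were higher in 3583T3 and 21 (42%) lower, and the median difference was -0.45. In 8 of the 50 all arrays of 3583T3 were at or under log2 4 and in 2 all arrays of 3151T4, so these were tested through the other line. Over all 54 genes the mean level was 7.06 to 7.81 on the arrays of 3583T3 and 7.44 to 9.08 on those of 3151T4, which overlap. Among the higher ones were Spon1, a secreted spondin, at 8.27, 8.93 and 9.40 in 3583T3 and 4.21, 4.79 and 5.16 in 3151T4 (4.13 ± 0.19, 17.5-fold), and Nid1, the basement membrane protein nidogen-1, at 11.77, 11.94 and 12.03 in 3583T3 and 8.58, 9.81 and 10.02 in 3151T4 (2.41 ± 0.17). Col14a1 (2.10 ± 0.22) and the proteoglycan Vcan (1.99 ± 0.51) followed, but on the Mycl1 arrays Vcan was lower in 3583T3 (-0.39). Fmod, fibromodulin, a proteoglycan of collagen fibrils, read 3.94, 7.66 and 7.81 in 3583T3 and 11.25, 12.20 and 12.88 in 3151T4 (-5.60 ± 0.37, 48.6-fold lower). Fbn2, a fibrillin of embryonic microfibrils, read 3.56, 4.03 and 5.23 in 3583T3 and 8.88, 9.55 and 10.55 in 3151T4 (-5.41 ± 0.26, 42.6-fold lower). Both lay below every array of 3151T4, as did Nid2, the second nidogen (-4.37 ± 0.42). Lum, the proteoglycan lumican, read 1.64, 2.13 and 2.67 in 3583T3 and 2.69, 6.55 and 10.73 in 3151T4 (-4.48 ± 0.87). In 3151T4 it was highest on the Nfib arrays and lowest on the Mycl1 arrays, so the difference was -8.11 with Nfib, -0.88 with Mycl1 and -4.45 with both. Of 16 fibroblast markers tested, 4 (25%) were higher in 3583T3, among them Mfap5, a microfibril protein (2.60 ± 0.23), and 7 (43.8%) lower. Over all 17 fibroblast markers on the array the mean level was 6.67 to 8.41 on the arrays of 3583T3 and 6.99 to 9.21 on those of 3151T4, which overlap.

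**Figure D2:**
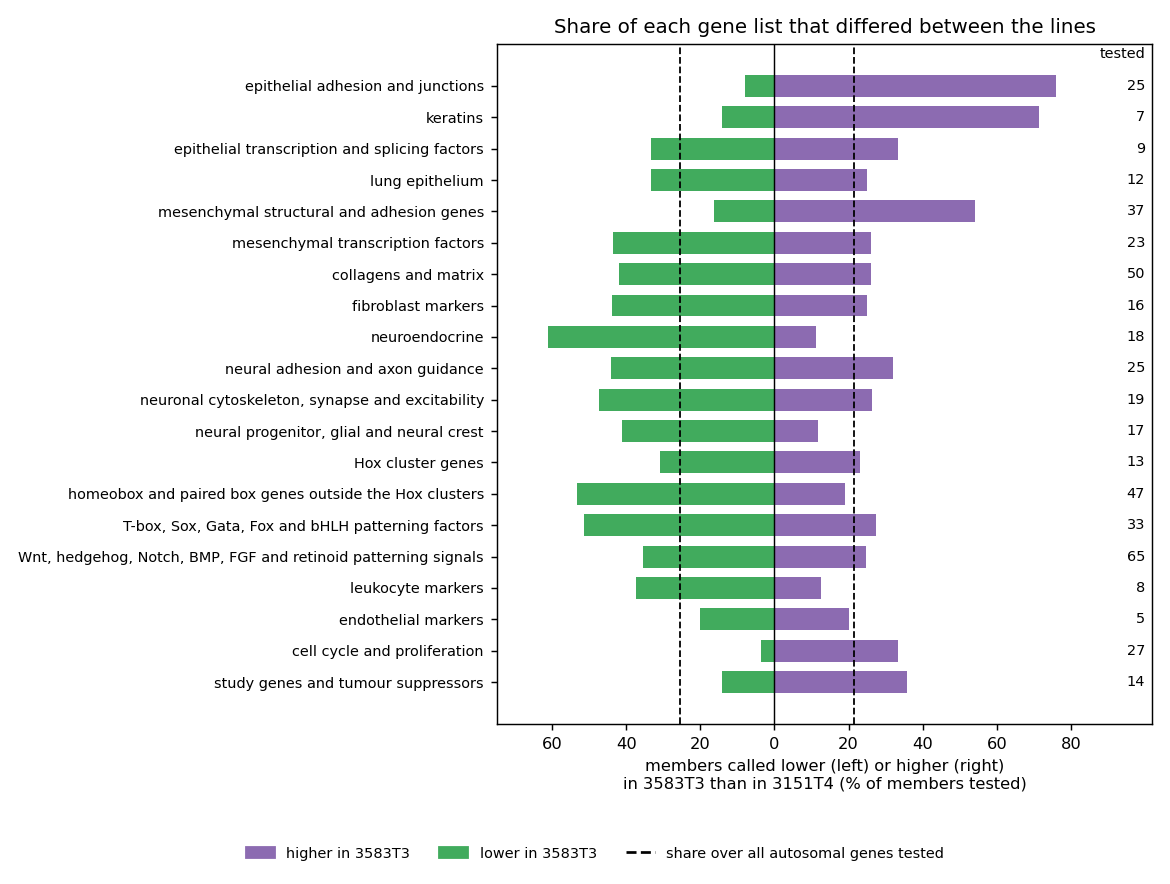
Share of the tested members of each of 20 gene lists that passed the test, lower in 3583T3 to the left and higher to the right (% of members tested, whose number stands at the right edge), with dashed lines at 25.5% and 21.4%, the shares over all 8375 autosomal genes. The junction genes and keratins reach furthest to the right, and the neuroendocrine, homeobox and T-box lists furthest to the left. The lists were chosen with earlier results of these data known, so the shares are a description and no test.

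Most neuroendocrine markers were near the floor in both lines. Of 46 on the array, 28 were below the filter, among them the granule proteins Chga and Chgb, the factor Neurod1, the peptide Grp and the synaptic proteins Syt1 and Snap25. Chga averaged 2.42 in 3583T3 and 2.37 in 3151T4, and Neurod1 2.51 and 2.56. No probe set named Calca alone, and Syp lies on the X chromosome, so neither was tested. Sox10, a factor of neural crest and Schwann cells, was below the filter too. Ncam1, the neural cell adhesion molecule, was high in both lines, at 11.52, 11.78 and 12.37 in 3583T3 and 11.78, 12.21 and 12.33 in 3151T4. Its difference of -0.31 ± 0.13 did not pass (adjusted p = 0.0686) but passed without 3583T3 Nfib replicate 1 (-0.41, adjusted p = 0.0206), without 3583T3 Nfib+Mycl1 replicate 2 (-0.40, adjusted p = 0.0216) and without 3151T4 Nfib+Mycl1 replicate 3 (-0.37, adjusted p = 0.0472).

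Of the 18 neuroendocrine genes tested, 2 (11.1%) were higher in 3583T3 and 11 (61.1%) lower, against 21.4% and 25.5% of all genes, with a median difference of -0.88. In 5 of the 18 all arrays of 3583T3 were at or under log2 4 and in 2 all arrays of 3151T4. Over all 46, the mean level was 3.78 to 4.00 on the arrays of 3583T3 and 4.23 to 4.45 on those of 3151T4, with no overlap and both near the floor. Besides Ddc, the lower genes were led by Rab3c, a vesicle GTPase, at 2.80, 2.96 and 3.32 in 3583T3 and 5.15, 5.64 and 5.98 in 3151T4 (-2.62 ± 0.18), and Nkx2-2, a homeobox factor of neural tube and endocrine pancreas, at 2.14, 2.24 and 2.49 in 3583T3 and 4.28, 4.89 and 5.28 in 3151T4 (-2.56 ± 0.18). Syt11, a synaptotagmin (-1.79 ± 0.13), and Scg2, secretogranin II (-1.48 ± 0.17), followed. All 4 were lower on every array of 3583T3. Scg2 averaged 2.26 in 3583T3 and 3.74 in 3151T4, under log2 4 in both lines. Insm1, a zinc finger factor of neuroendocrine cells, was higher, at 3.08, 3.60 and 5.51 in 3583T3 and 2.40, 2.58 and 2.96 in 3151T4 (1.36 ± 0.27, adjusted p = 0.00125), and only the Mycl1 arrays of 3583T3 exceeded log2 4. Ret, a receptor tyrosine kinase, was higher by 0.76 ± 0.24 (adjusted p = 0.0196), and did not pass without 3151T4 Mycl1 replicate 3 (adjusted p = 0.0508) or without 3151T4 Mycl1 replicate 4 (adjusted p = 0.0515). It averaged 3.48 in 3583T3 and 2.72 in 3151T4, under log2 4 in both lines as well. Rest, the repressor of neuronal genes, read 8.09, 8.38 and 8.65 in 3583T3 and 8.12, 8.34 and 8.76 in 3151T4 (0.02 ± 0.14, adjusted p = 0.904).

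Genes of neural adhesion and axon guidance differed in both directions. Of 25 tested, out of 47 on the array, 8 (32%) were higher in 3583T3 and 11 (44%) lower. In 1 of the 25 all arrays of 3583T3 were at or under log2 4 and in 2 all arrays of 3151T4. Cadm1, an immunoglobulin adhesion molecule of synapses and epithelia, read 9.84, 10.66 and 11 in 3583T3 and 5.02, 6.98 and 7.58 in 3151T4 (4.02 ± 0.38, 16.2-fold). Epha7, an ephrin receptor, read 6.0, 6.83 and 7.37 in 3583T3 and 2.38, 3.17 and 3.68 in 3151T4 (3.68 ± 0.27), and Slit2, a repellent of axons, was higher as well (2.78 ± 0.34). Several guidance receptors were lower. Unc5c, a netrin receptor, read 3.34, 5.12 and 6.14 in 3583T3 and 7.69, 8.54 and 9.94 in 3151T4 (-4.01 ± 0.26, 16.1-fold lower). Plxnd1, a semaphorin receptor (-2.70 ± 0.25), Nrp2, a neuropilin (-2.26 ± 0.16, 4.8-fold lower), and the cadherin Cdh10 (-2.68 ± 0.24) were lower, with no overlap of arrays in any of these 4.

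Of 19 genes of neuronal cytoskeleton, synapse and excitability tested, out of 49 on the array, 5 (26.3%) were higher in 3583T3 and 9 (47.4%) lower. In 3 of the 19 all arrays of 3583T3 were at or under log2 4 and in 1 all arrays of 3151T4. Over all 49 genes the mean level was 4.23 to 4.35 on the arrays of 3583T3 and 4.31 to 4.61 on those of 3151T4, which overlap. Celf4, a neuronal RNA-binding protein, read 8.55, 8.90 and 9.68 in 3583T3 and 5.70, 6.21 and 7.38 in 3151T4 (2.59 ± 0.28, 6.01-fold). The neurofilament gene Ina (1.66 ± 0.25) and the growth cone gene Gap43 (1.50 ± 0.34) were higher too. Elavl2, a neuronal RNA-binding protein (-2.13 ± 0.39), Cacna2d1, a calcium channel subunit (-1.90 ± 0.24), and Prph, the filament protein peripherin (-1.75 ± 0.29), were lower.

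Of 17 genes of neural progenitors, glia and neural crest tested, out of 34 on the array, 2 (11.8%) were higher in 3583T3 and 7 (41.2%) lower. The shares over all genes were 21.4% and 25.5%. In 3 of the 17 all arrays of 3583T3 were at or under log2 4, so these 3 were tested through 3151T4. Over all 34 genes the mean level was 3.69 to 3.92 on the arrays of 3583T3 and 4.02 to 4.33 on those of 3151T4, with no overlap. Sox2, a factor of neural progenitors and of foregut and airway epithelium, read 2.07, 2.34 and 2.67 in 3583T3 and 6.22, 7.45 and 8.71 in 3151T4 (-5.06 ± 0.31, adjusted p = 6.98e-08). It was under log2 4 on every array of 3583T3 and above log2 6 on every array of 3151T4. Tfap2a, a factor of neural crest and surface ectoderm, read 2.12, 2.92 and 3.76 in 3583T3 and 4.95, 6.23 and 7.18 in 3151T4 (-3.22 ± 0.40). Slc1a3, a glutamate transporter of astrocytes, read 7.31, 7.91 and 8.02 in 3583T3 and 8.90, 11.11 and 12.05 in 3151T4 (-2.92 ± 0.41, 7.55-fold lower), and S100b, a glial calcium-binding protein, was lower as well (-1.62 ± 0.38). Erbb3, a receptor of Schwann cells and epithelia, was higher in 3583T3, at 4.91, 5.76 and 6.71 in 3583T3 and 3.70, 3.98 and 4.26 in 3151T4 (1.78 ± 0.24).

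**Figure D3:**
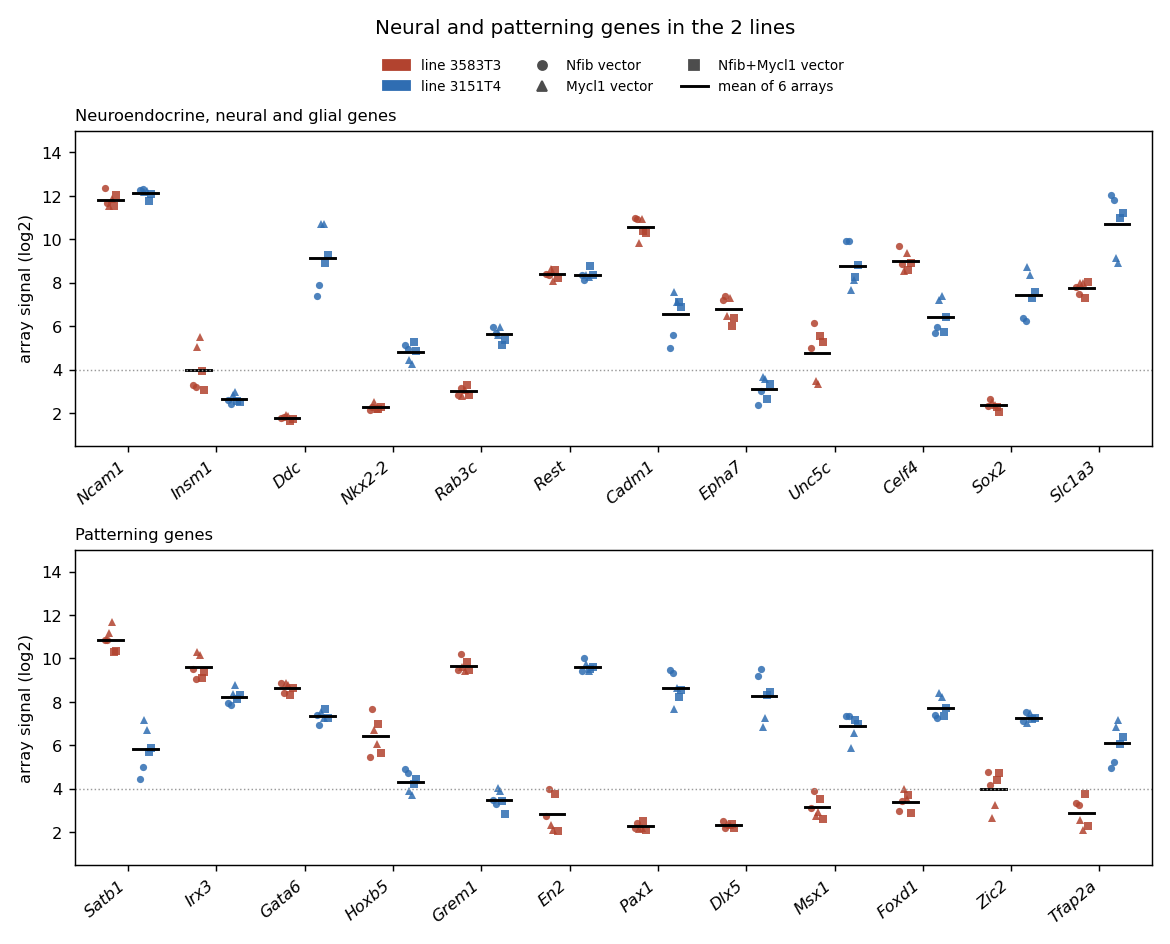
Array signal (log2) of 12 neuroendocrine, neural or glial genes and 12 patterning genes on each of the 6 arrays of 3583T3 (left of each gene) and of 3151T4 (right), with the vector as symbol, the mean as a bar and the filter level of log2 4 as a dotted line. Ddc, Sox2, En2, Pax1 and Dlx5 lie under log2 4 in 3583T3 and above log2 6 in 3151T4, and Satb1 and Grem1 lie above every array of 3151T4 in 3583T3.

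Among patterning factors outside the Hox clusters, most of those that differed were lower in 3583T3. Of 47 homeobox and paired box genes outside the Hox clusters tested, out of 99 on the array, 9 (19.1%) were higher in 3583T3 and 25 (53.2%) lower, with a median difference of -0.87. In 16 of the 47 all arrays of 3583T3 were at or under log2 4, and in 0 of the 47 all arrays of 3151T4 were. Over all 99 genes the mean level was 3.72 to 3.84 on the arrays of 3583T3 and 4.13 to 4.26 on those of 3151T4, with no overlap.

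En2, an engrailed factor of the midbrain and hindbrain, read 2.07, 2.56 and 3.98 in 3583T3 and 9.43, 9.56 and 10.02 in 3151T4 (-6.79 ± 0.30, adjusted p = 4.85e-09). Pax1, a factor of vertebral precursors and pharyngeal pouches, read 2.11, 2.22 and 2.53 in 3583T3 and 7.66, 8.59 and 9.48 in 3151T4 (-6.37 ± 0.23, adjusted p = 7.97e-10). Dlx5, a factor of pharyngeal arches and bone, read 2.17, 2.36 and 2.53 in 3583T3 and 6.86, 8.39 and 9.51 in 3151T4 (-5.93 ± 0.30, adjusted p = 1.49e-08). These 3 genes were near the floor in 3583T3 on all arrays and well above it in 3151T4. Msx1, a factor of facial and limb mesenchyme, read 2.60, 3.02 and 3.92 in 3583T3 and 5.89, 7.08 and 7.35 in 3151T4 (-3.74 ± 0.22). Lhx1, a LIM factor of head organizer and kidney, read 4.71, 5.57 and 7.09 in 3583T3 and 8.50, 9.61 and 10.39 in 3151T4 (-3.78 ± 0.41, 13.7-fold lower). Lhx8, a LIM factor of forebrain and tooth, differed by -4.01 ± 0.81 on average, but by -6.79 on Nfib arrays, -5.10 on Nfib+Mycl1 arrays and -0.15 on Mycl1 arrays.

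Higher in 3583T3 was Satb1, a chromatin organizer known from thymocytes, at 10.30, 10.86 and 11.70 in 3583T3 and 4.44, 5.80 and 7.17 in 3151T4 (5.05 ± 0.26, 33.1-fold, adjusted p = 1.63e-08). Irx3, an Iroquois factor of lung and neural tube, read 9.07, 9.45 and 10.32 in 3583T3 and 7.85, 8.24 and 8.78 in 3151T4 (1.35 ± 0.14, 2.56-fold). Msx2 (1.73 ± 0.28) and Lhx9 (1.69 ± 0.47) were higher too. The arrays did not overlap for Satb1, Irx3 and Msx2. Of 13 Hox genes tested, out of 31 on the array, 3 (23.1%) were higher in 3583T3 and 4 (30.8%) lower, close to the shares over all genes, and the median difference was 0.02. Hoxb5, a factor of lung and hindbrain, read 5.47, 6.39 and 7.66 in 3583T3 and 3.73, 4.35 and 4.93 in 3151T4 (2.09 ± 0.35, 4.26-fold), and Hoxc4 was higher as well (1.98 ± 0.33). Hoxb4 (-1.20 ± 0.31), the neighbour of Hoxb5 in its cluster, and Hoxa4 (-0.75 ± 0.16) were lower.

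Of 33 patterning factors of the T-box, Sox, Gata, Fox, bHLH and other families tested, out of 67 on the array, 9 (27.3%) were higher in 3583T3 and 17 (51.5%) lower, with a median difference of -0.91. In 8 of the 33 all arrays of 3583T3 were at or under log2 4 and in 4 all arrays of 3151T4, so these were tested through the other line. Over all 67 genes the mean level was 3.96 to 4.23 on the arrays of 3583T3 and 4.52 to 4.62 on those of 3151T4, with no overlap. Besides Sox2, Foxd1 and Tfap2a, which were named with other lists above, the lower genes were led by Foxp2, a forkhead factor of airway epithelium and brain. Foxp2 read 2.85, 3.01 and 3.21 in 3583T3 and 6.12, 6.49 and 6.79 in 3151T4 (-3.39 ± 0.16, adjusted p = 9.00e-09). Zic2 and Zic5 are zinc finger factors of the dorsal neural tube that lie next to each other on chromosome 14. Zic2 read 2.68, 4.28 and 4.76 in 3583T3 and 7.03, 7.22 and 7.52 in 3151T4 (-3.27 ± 0.27), and Zic5 4.04, 5.34 and 6.68 in 3583T3 and 8.33, 8.52 and 9.03 in 3151T4 (-3.28 ± 0.34). The arrays of the 2 lines did not overlap for these 3 genes. Gata6, a factor of lung and gut endoderm, was higher in 3583T3, at 8.31, 8.73 and 8.88 in 3583T3 and 6.95, 7.33 and 7.68 in 3151T4 (1.31 ± 0.16, 2.47-fold), as was Sox7, a factor of endoderm and vessels (1.89 ± 0.20). Sox9, a factor of cartilage and of airway tips, read 9.07, 9.67 and 10.17 in 3583T3 and 8.65, 9.74 and 11.08 in 3151T4 and did not pass (-0.13 ± 0.20, adjusted p = 0.618).

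Patterning signals differed in both directions. Of 65 tested, out of 104 on the array, 16 (24.6%) were higher in 3583T3 and 23 (35.4%) lower, and their median difference was -0.19. In 7 of the 65 all arrays of 3583T3 were at or under log2 4 and in 4 all arrays of 3151T4. Without the 2 arrays whose Mycl goes against the label 20 were lower. After Grem1, the higher genes were led by Nrarp, a feedback inhibitor of Notch, at 8.63, 9.15 and 9.95 in 3583T3 and 4.59, 5.20 and 6.56 in 3151T4 (3.79 ± 0.17, 13.9-fold, adjusted p = 5.98e-09). Aldh1a1, which makes retinoic acid, read 9.48, 11.05 and 11.74 in 3583T3 and 6.76, 6.96 and 8.84 in 3151T4 (3.36 ± 0.40, 10.2-fold). Inhbb, an activin subunit, was higher on average (2.42 ± 0.48) but differed by 0.11 on the Nfib arrays. Rspo2, an activator of Wnt signals, read 2.34, 2.66 and 2.97 in 3583T3 and 4.89, 5.79 and 8.08 in 3151T4 (-3.52 ± 0.38). Hey1, a target of Notch, read 4.23, 5.20 and 5.39 in 3583T3 and 7.25, 7.41 and 7.80 in 3151T4 (-2.38 ± 0.20, 5.22-fold lower), so Nrarp and Hey1, both targets of Notch, stood on opposite sides. Dkk3, a secreted dickkopf protein, was lower in 3583T3 (-2.14 ± 0.22, 4.4-fold).

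The genes that the vectors carry did not separate the lines. Nfib read 10.12, 10.38 and 10.45 in 3583T3 and 9.82, 10.22 and 10.58 in 3151T4 (0.11 ± 0.12, adjusted p = 0.459), and the difference did not pass. It was no higher on arrays with the Nfib vector: the arrays of 3583T3 labelled Nfib read 10.45 and 10.23 and those of 3151T4 10.40 and 9.82, against 10.62 and 10.59 on the untransfected arrays of 3583T3 and 10.48 and 10.76 on those of 3151T4. The Nfib probe set thus does not bear out the Nfib label, which was taken as given. Mycl ranged over 2.28, 10.15 and 11.05 in 3583T3 and 2.12, 9.53 and 10.34 in 3151T4 (0.47 ± 1.58, adjusted p = 0.828), and within each line it was high on the arrays with the Mycl1 vector, apart from the 2 arrays named above. Mycn, another MYC family oncogene, read 12.51, 12.88 and 13.25 in 3583T3 and 12.19, 12.72 and 13.26 in 3151T4 (0.13 ± 0.13, adjusted p = 0.438). The same probe set read 2.03, 2.56, 2.46 and 2.48 on the untransfected arrays, and another Mycn probe set 2.81 to 4.93 on the arrays with a vector, so the level of Mycn is not settled by these arrays. For Nfib, Mycl and Mycn a dimmer probe set passed, higher in 3583T3, by 1.23 ± 0.27, 1.57 ± 0.58 and 1.25 ± 0.16 (adjusted p = 0.00367, 0.0488 and 7.72e-05 over all probe sets). Cdkn1a, the cell cycle inhibitor p21, read 8.60, 9.90 and 10.88 in 3583T3 and 4.69, 5.25 and 6.52 in 3151T4 (4.30 ± 0.37, 19.7-fold, adjusted p = 1.39e-06). Cdkn2b, the inhibitor p15, read 10.23, 10.73 and 11.10 in 3583T3 and 8.01, 8.90 and 9.65 in 3151T4 (1.85 ± 0.22, 3.61-fold), and Myc was higher as well, at 9.89, 10.54 and 11.37 in 3583T3 and 8.22, 8.95 and 10.34 in 3151T4 (1.40 ± 0.29, adjusted p = 0.00174). For Cdkn1a and Cdkn2b the groups did not overlap, and for Myc they did. Among the other nuclear factors I, Nfix was higher (0.68 ± 0.18) and Nfia lower (-0.83 ± 0.26). Rb1, the retinoblastoma tumour suppressor, was lower (-0.43 ± 0.14, adjusted p = 0.0225), and its adjusted p was 0.0575 without 3151T4 Nfib replicate 3, 0.0532 without 3151T4 Mycl1 replicate 3 and 0.0516 without 3151T4 Nfib replicate 4. Of 27 cell cycle genes tested, 9 (33.3%) were higher in 3583T3 and 1 (3.7%) lower, 0 of them by at least 2-fold. The shares over all genes were 21.4% and 25.5%. The test was passed by 37% of the cell cycle genes, against 47% of all genes.

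Markers of other cell types were partly dim and partly bright. Of 8 leukocyte markers tested, out of 20 on the array, 3 (37.5%) were lower in 3583T3 and 1 (12.5%) higher, against 25.5% and 21.4% of all genes. In 4 of the 8 all arrays of 3583T3 were at or under log2 4 and in 1 all arrays of 3151T4, so these were tested through the other line. Cd74, the invariant chain of antigen-presenting cells, read 2.91, 3.23 and 3.46 in 3583T3 and 5.31, 6.15 and 8.61 in 3151T4 (-3.51 ± 0.38), Coro1a differed by -2.03 ± 0.18 and Cd53 by -1.90 ± 0.54. In 3151T4 Cd74 and Cd53 were brightest on the Nfib arrays, at 8.61 and 8.52 for Cd74 and 8.36 and 8.57 for Cd53. On the untransfected arrays Cd74 and Cd53 were higher in 3583T3, by 2.14 and 2.15. Of 5 endothelial markers tested, out of 15, Esam was higher in 3583T3, at 5.26, 9.34 and 10.43 in 3583T3 and 2.31, 2.46 and 2.60 in 3151T4, and Flt1, a receptor of vascular growth factor, was lower, at 5.68, 8.60 and 8.82 in 3583T3 and 6.41, 10.05 and 11.40 in 3151T4 (-1.60 ± 0.25). Over all 15 endothelial markers the mean level was 3.33 to 3.81 on the arrays of 3583T3 and 2.97 to 3.67 on those of 3151T4, which overlap, and Pecam1 and Cdh5, which define endothelium, were below the filter in both. The part of leukocyte or endothelial RNA in other differences was not tested.

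For 717 of the 8375 genes (8.56%) the difference between the lines depended on the vector (F-test of line by vector, adjusted p under 0.05), and 439 of these also differed on average. That count depended on single arrays. Of 3151T4, it was 272 without Nfib replicate 3, 300 without Nfib replicate 4, 375 without Mycl1 replicate 3, 416 without Mycl1 replicate 4 and 466 without Nfib+Mycl1 replicate 3. Of 3583T3, it was 1020 without Nfib+Mycl1 replicate 1 and 939 without Nfib replicate 1, and it was 906 without the 2 arrays whose Mycl goes against the label. In 3583T3, Nfib replicate 1 correlated best with Nfib+Mycl1 replicate 2 (0.989) and Nfib+Mycl1 replicate 1 with Nfib replicate 2 (0.990). The differences below on the Nfib and on the Nfib+Mycl1 arrays each average 1 of those 2 arrays of 3583T3. The sign seldom turned among the larger differences. Of the 1320 genes at least 2-fold apart, 34 had the other sign with at least 1 vector. Among the keratins, Krt8 was higher in 3583T3 by 7.09 on Nfib arrays, 4.49 on Mycl1 arrays and 5.65 on Nfib+Mycl1 arrays (adjusted p = 0.00267), and Krt18 by 4.47, 2.55 and 4.28 (adjusted p = 0.00224). In both the difference was smallest with Mycl1 alone. For Cdh1 it was 4.04, 4.26 and 4.19 (adjusted p = 0.901), which gave no such call. Ddc and Sox2 were lowest in 3583T3 relative to 3151T4 on the Mycl1 arrays (-8.83 and -6.11) and least so on the Nfib arrays (-5.84 and -3.79). Both genes lay near the floor in 3583T3, with means of 1.79 and 2.37, so this pattern is that of their level in 3151T4. Lhx8 had the smallest interaction p of the genes named here (5.62e-07).

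The differences were not spread evenly over the chromosomes. The median difference of the genes tested was lowest on chromosome 14, at -0.54 over 299 genes, of which 185 were lower in 3583T3 and 21 higher. It was -0.39 on chromosome 1 and -0.33 on chromosome 3. It was highest on chromosome 19, at 0.31 over 311 genes, of which 142 were higher in 3583T3 and 29 lower, followed by 0.23 on chromosome 12 and 0.21 on chromosome 4. On 10 of the 19 autosomes the median signal of the 6 arrays of 3583T3 did not overlap that of the 6 arrays of 3151T4, 5 of them higher and 5 lower in 3583T3. On 15 autosomes the sign was the same with all 3 vectors and on the untransfected arrays. Among windows of 10 Mb with at least 20 genes tested, the lowest median, -0.73, lay on chromosome 14 (25 of 33 genes lower, 0 higher), and the highest, 0.62, on chromosome 12 (24 of 33 higher, 3 lower). These values are descriptions with no test, and DNA copy number was not measured here. Zic2, Zic5, Nid2 and Pcdh8, all lower in 3583T3, lie on chromosome 14, and Fmod and Igfbp5 on chromosome 1, and the differences of these 6 genes were several times the median of their chromosome. The part of these chromosome-wide shifts in the differences of single genes was not tested.

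**Figure D4:**
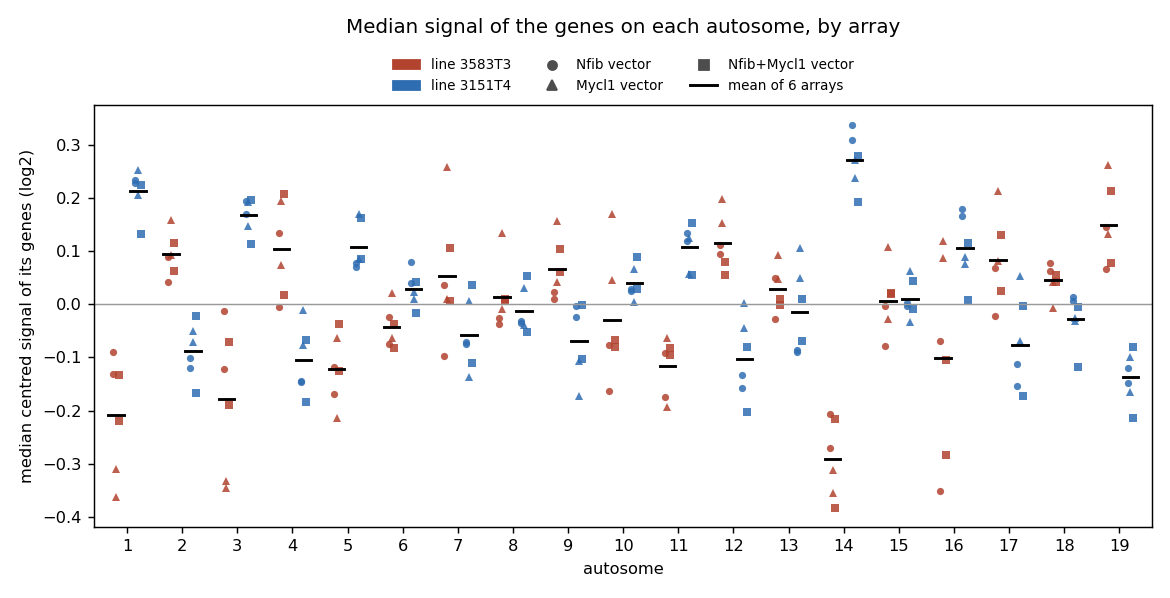
Median over the genes tested on each autosome of the array signal minus the mean of the gene over the 12 arrays (log2), for each of the 6 arrays of 3583T3 (left) and of 3151T4 (right), with the vector as symbol and the mean as a bar. The arrays of 3583T3 lie lowest on chromosome 14, from -0.38 to -0.21, against 0.19 to 0.34 in 3151T4, and highest on chromosome 19, from 0.07 to 0.26, against -0.21 to -0.08 in 3151T4.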

How the data were processed

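Total RNA of 16 cultures was amplified and biotin-labelled, per the labels, and read on 1-channel Affymetrix arrays. The authors deposited 1 value for each of 22690 probe sets and array, for which the submitters' processing notes name the tools R 2.11.0 and GCRMA 2.20.0. That these deposited values are on the log2 scale was read from their range, since no label states it. GCRMA corrects background and quantile normalises, so dim probe sets collapse onto a floor, and differences against it may understate the change.

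Among probe sets with 1 symbol, the brightest on average over the 12 vector arrays stood for its gene. Probe sets with several symbols (691) or none (1555) were left out. A gene had to exceed log2 4 on 2 arrays. limma 3.58.1 in R 4.3.3 fitted line and vector, with a mean-variance trend and Benjamini-Hochberg adjustment over 8663 genes; dependence on the vector was an F-test over the 6 group means. The 12 largest differences in each direction, fixed anchor genes and the leading members of each list were named. The 12 were taken among called genes whose arrays did not overlap between the lines, with predicted or clone symbols skipped. Members and lists were chosen with earlier results of these data known, and some of the lists' named members after their values were seen. The scripts were tested on simulated data. Chromosomes and promoters came from RefSeq (GRCm38.p6). The number of arrays limits precision.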

Additional observations from a re-analysis of the deposited data

Results flagged for a closer look

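A sample far from the others in its line was found in 4 places, among 144 named genes and 20 gene lists looked at in each line. Chance flags about 1 in 20 groups of like arrays, so 4 places are fewer than that rate gives. The arrays of a line carry different vectors and are not alike in this sense. The mean of the leukocyte markers was 3.01 on 3583T3 Mycl1 replicate 1, above the other 5 arrays of 3583T3. Cldn6 read 1.89 on 3151T4 Nfib replicate 4 and Ret 2.29 on 3151T4 Nfib+Mycl1 replicate 3, both near the floor. Hey1 read 7.80 on 3151T4 Nfib replicate 3, apart from the other arrays of 3151T4.

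For 53 of the 144 named genes the difference between 3583T3 and 3151T4 depended on the vector, each with its adjusted p of the F-test in parentheses. Over all 8375 genes it was 717 (8.56%), and 272 to 1020 when 1 array was left out. The named genes were chosen largely for the size of their difference, so their share is no result about them. The 53 genes were found by a test of the difference itself, and the pattern over vectors is given as a description. The Nfib and the Nfib+Mycl1 arrays of 3583T3 each include 1 array whose Mycl goes against the label.

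Genes higher in 3583T3 whose difference was largest on the Nfib arrays were Mal2 (0.00222), Krt8 (0.00267), Krt18 (0.00224), Krt19 (0.0469), Krt80 (0.0308), Actg2 (0.00417), Cadm1 (0.00788) and Satb1 (0.0205). Largest with both vectors were Cldn18 (0.0262), Clca3a1 (0.0368), Krt7 (0.00662), Thy1 (0.00951), Myl9 (0.0299), Tagln (0.00723) and Nid1 (0.00933). Krt80 differed by 3.14 with Nfib, 0.87 with Mycl1 and 2.42 with both. Largest on the Mycl1 arrays were Insm1 (0.0416), Pdpn (0.0141), Slit2 (5.45e-04), Ina (0.0182), Aldh1a1 (0.0217) and Inhbb (6.91e-05). Slit2 differed by 1.20 with Nfib, 3.64 with Mycl1 and 3.49 with both. The 5 keratins higher in 3583T3, Krt7, Krt8, Krt18, Krt19 and Krt80, differed least on the Mycl1 arrays.

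Genes lower in 3583T3 whose difference was largest on the Nfib arrays were Susd2 (8.23e-04), Hsd11b1 (2.69e-05), Dlx5 (0.00445), Fndc1 (0.00388), Cldn15 (0.00134), Trp63 (6.64e-04), Bpifb1 (1.95e-05), Hopx (0.0144), Lum (7.58e-05), Prph (0.0148), Slc1a3 (4.30e-04), S100b (0.00107), Lhx8 (5.62e-07), Cd74 (6.49e-04), Cd53 (2.16e-04) and Flt1 (0.00317). Bpifb1 differed by -7.39 with Nfib, -0.88 with Mycl1 and -2.79 with both, and Trp63 by -5.08, -1.41 and -3.09. Largest on the Mycl1 arrays were Ddc (8.23e-04), Pcdh8 (0.00933), Sox2 (0.00427), Cldn10 (0.012), Postn (2.02e-05), Fmod (8.33e-04), Elavl2 (0.0337), Cacna2d1 (0.0382), Tfap2a (0.0184), Lhx1 (0.0368), Zic5 (0.0476), Rspo2 (0.00455), Tph1 (0.0467) and Cxcr4 (0.0225). Postn differed by -1.36 with Nfib, -4.54 with Mycl1 and -0.43 with both.

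The sign turned with the vector in 2 genes. Vcan (7.41e-05) differed by 3.65 with Nfib, -0.39 with Mycl1 and 2.71 with both, and Sox9 (0.0387) by -0.91, 0.47 and 0.04.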

How the results depend on the processing

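Between the lines 3933 autosomal genes differed, 1320 of them at least 2-fold. Over every probe set, where more features were tested, the counts were 6578 and 2118. With the replicates averaged, which leaves 2 residual degrees of freedom, 1980 genes differed. On the Mycl1 arrays alone 2366 differed and on the Nfib+Mycl1 arrays alone 2066, each with 4 arrays. Leaving out 1 array at a time gave 3498 to 3917 genes, 1286 to 1359 at least 2-fold apart, and 272 to 1020 whose difference depended on the vector. That last count, 717 over all arrays, was 272 without 3151T4 Nfib replicate 3, 300 without 3151T4 Nfib replicate 4, 375 without 3151T4 Mycl1 replicate 3, 416 without 3151T4 Mycl1 replicate 4 and 466 without 3151T4 Nfib+Mycl1 replicate 3. The lines share no replicate numbers, so they cannot be paired, and a replicate block within lines, as a random effect with a correlation of -0.24, gave 5223, 1344 and 496 genes. Of 144 named genes, 101 kept their call and direction under every alternative in which they were tested. Not all were tested in each: the stricter filter kept 128 of the 144 and the filter on the mean 133. The sign was reversed for Actg2 (-1.52), Vcan (-0.14), Cd74 (2.14) and Cd53 (2.15) on the untransfected arrays alone and for Vcan on the Mycl1 arrays alone (-0.39); the cause was not tested. Signal near the floor limits genes dim in 1 line, whose differences may understate the change, and with 1 line from each tumour the tumours are not replicated.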

Other observations

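The genes below were chosen after their values were seen, so they describe the lines and are no test of a theme. Msln and Wfdc2, secreted or surface glycoproteins of mesothelium and of airway and reproductive tract epithelium, were high in 3583T3. Msln read 10.78, 10.89 and 11.26 in 3583T3 and 6.14, 6.74 and 7.30 in 3151T4 (4.20 ± 0.17, 18.4-fold, adjusted p = 2.07e-09 in limma). Wfdc2 read 10.25, 10.87 and 11.26 in 3583T3 and 5.78, 6.50 and 6.88 in 3151T4 (4.35 ± 0.21, 20.4-fold). Neither gene overlapped between the lines. Of the prostanoid genes, Ptges, which makes prostaglandin E, read 6.01, 6.24 and 6.53 in 3583T3 and 2.76, 2.91 and 3.17 in 3151T4 (3.29 ± 0.14), and the prostaglandin transporter Slco2a1 6.29, 7.98 and 10.29 in 3583T3 and 4.42, 4.62 and 5.10 in 3151T4 (3.46 ± 0.48, 11-fold). Both were higher on every array of 3583T3, as was prostacyclin synthase, Ptgis, above.

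Tph1, the rate-limiting enzyme of serotonin synthesis outside neurons, read 2.36, 2.46 and 2.50 in 3583T3 and 6.30, 7.15 and 7.76 in 3151T4 (-4.63 ± 0.22, adjusted p = 6.99e-09 in limma). Like Ddc, the next enzyme of that path, it was under log2 4 on every array of 3583T3. The chemokine receptors Cxcr4 and Ackr3, which bind the same ligand, Cxcl12, were lower in 3583T3. Cxcr4 read 3.37, 4.02 and 4.90 in 3583T3 and 6.70, 7.69 and 9.75 in 3151T4 (-3.94 ± 0.42, 15.3-fold), and Ackr3 5.35, 6.27 and 7.89 in 3583T3 and 9.61, 10.12 and 10.73 in 3151T4 (-3.70 ± 0.36, 13-fold). The binding proteins of insulin-like growth factors differed by member. Igfbp3 was higher in 3583T3, at 9.46, 10.31 and 10.68 in 3583T3 and 4.81, 5.33 and 5.67 in 3151T4 (4.90 ± 0.22, 29.8-fold), while Igfbp2 was lower, at 5.11, 7.0 and 8.88 in 3583T3 and 10.33, 10.59 and 11.03 in 3151T4 (-3.71 ± 0.48, 13.1-fold), as was Igfbp5 above. On the untransfected arrays, which hold leukocyte RNA, the difference of Igfbp2 was -0.38.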
